A study of Rattus norvegicus with 6 samples.

Results

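The RNA for Arfrp1 and 9 other small GTPases of the Arf, Arl and Sar1 families was followed in rat β-cells after depletion of COUP-TFII, a nuclear receptor encoded by Nr2f2. The members are Arfrp1, Arl1, Arl2, Arl3, Arf1, Arf3, Arf4, Arf5, Arf6 and Sar1b, chosen by gene family around Arfrp1. All probe sets annotated to 1 of these symbols alone were taken, 14 of the 31042 probe sets on the array that are not controls, for 10 of the 14217 genes with a probe set of their own. Arfrp1, Arl1, Arf1 and Arf3 were each read by 2 probe sets and the other 6 genes by 1. Arfrp1 was singled out because 1 of its probe sets read lower in COUP-TFII depleted cells in these same arrays. Its difference is therefore a description, and the counts of calls below that include it support nothing about it.

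Cells of the insulin-secreting 832/13 INS-1 line, a clone of a rat insulinoma grown in 11 mM glucose and taken at passages from 7 to 25, were electroporated with siRNA and cultured for 48 h. COUP-TFII siRNA was given to 3 cultures (COUP-TFII depleted cells) and scrambled siRNA to 3 others (control cells), numbered 1 to 3 in each group. Both groups come from 1 clonal tumour line and went through the same electroporation, and untreated cells were not analysed here. The value of a probe set, a group of short probes for 1 transcript, is a linear MAS5 intensity called its signal. Brightness depends on the probes as well as on the RNA, so no signal is ranked against that of another probe set, and in such bulk samples fewer expressing cells and less RNA per cell cannot be told apart.

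Arf and Arl proteins are molecular switches that bind membranes when loaded with GTP and leave them after GTP is hydrolysed. Exchange factors load them, GTPase-activating proteins switch them off, and in the active state they recruit coats, tethers and lipid enzymes. At the trans-Golgi Arfrp1 acts upstream of Arl1, which brings in golgins, long tethers that catch vesicles. Arf1, Arf3, Arf4 and Arf5 recruit the COPI coat and the AP-1 and GGA adaptors to the Golgi, Arf6 works at the plasma membrane and endosomes, and Sar1b starts the COPII coat at exit sites of the endoplasmic reticulum. Proinsulin enters this route at the endoplasmic reticulum and is packed into secretory granules at the trans-Golgi.

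The brightest probe set of the target, Nr2f2 1389554_at, read 47.0, 27.7 and 23.8 in COUP-TFII depleted cells (replicates 1, 2 and 3) and 182, 235 and 179 in control cells. Of its other two probe sets, 1370063_at had means of 21.1 and 69.1 with groups apart (log2 fold change -1.71), and the dim 1395863_at had means of 13.3 and 16.6 with overlapping groups (log2 fold change -0.37). Of 9 β-cell markers 8 were measured, all with means above the scale for background, 20.7, the highest signal seen among Bacillus controls. Summed over the 8, their signals ran from 39166.8 to 43655.8 in COUP-TFII depleted cells and from 29913.3 to 40805.2 in control cells. Most of this sum was Ins1, Ins2, Iapp and Slc2a2. By mean log2 signal 5 of the 8 were higher in COUP-TFII depleted cells and 3 lower, namely Pdx1 (-0.16), Nkx6-1 (-0.45) and Neurod1 (-0.015). The median log2 fold change of the 8 was 0.154, and -0.024 after quantile normalization. Of 12 markers of other pancreatic cells, 10 had means at or below the scale for background in both groups. Of the other two, Ppy for pancreatic polypeptide had means of 24.8 and 26.7, and Gcg for glucagon differed widely by replicate number. Gcg read 8055.5, 4788.5 and 817 in COUP-TFII depleted cells and 6312.8, 3397.0 and 394 in control cells. It was higher in COUP-TFII depleted cells in 3 of 3 pairs, by 0.35, 0.5 and 1.05 on the log2 scale (limma adjusted p = 1 unpaired and 0.566 with the block). Summed, these 12 markers ran from 913 to 8179.3 in COUP-TFII depleted cells and from 531 to 6418.3 in control cells, most of it Gcg. Without Gcg the other 11 summed to between 95.8 and 124 in COUP-TFII depleted cells and between 102 and 137 in control cells, and Sst, Prss1, Cpa1, Krt19, Col1a1, Ptprc and Pecam1 were among the dim ones. The part of these cell markers in the results on the GTPases was not tested.

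The 2 probe sets of Arfrp1 differed from each other. Arfrp1 1370223_at read 259, 366 and 252 in COUP-TFII depleted cells, for replicates 1, 2 and 3, and 499, 557 and 435 in control cells. All 3 COUP-TFII depleted arrays lay below all 3 control arrays, as they did for 3.45% of all probe sets, and the array of replicate 2 was the highest in each group. The means were 292 ± 63.7 and 497 ± 61.1 (SD, n = 3 each). The log2 fold change was -0.78 (standard error, SE, 0.18), or a ratio of geometric means of 0.582. The log2 difference was -0.95, -0.61 and -0.79 in the same-numbered pairs 1, 2 and 3.

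Arfrp1 1389158_at read 92.5, 103 and 123 in COUP-TFII depleted cells and 88.9, 89.5 and 141 in control cells. These groups overlapped, the signal was higher in 2 of 3 pairs, and the array of replicate 3 was the highest in each group. The means were 106 ± 15.7 and 106 ± 29.7 (SD, n = 3 each), and the log2 fold change was 0.02 (SE 0.25). The difference in log2 fold change between the first and the second probe set was -1.0, -0.8 and -0.6 in pairs 1, 2 and 3, on average -0.8 ± 0.2 (SD, n = 3). All 6 signals of the second probe set lay above 20.7, the scale for background. Both are annotated to Arfrp1 alone, and where their probes lie on its transcripts was not tested.

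**Figure D1:**
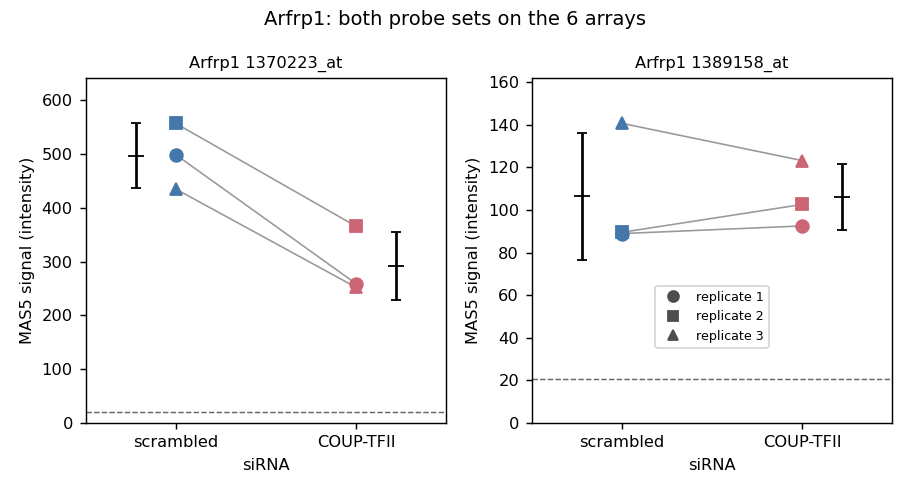
Both Arfrp1 probe sets on the 6 arrays, with the MAS5 signal on a linear axis from 0 for each siRNA. Each point is an array, with a symbol for each replicate number, grey lines join arrays with the same number, black bars are mean ± SD (n = 3) and a dashed line marks 20.7, the scale for background. The lines of 1370223_at all slope down towards COUP-TFII siRNA, while those of 1389158_at go up in pairs 1 and 2 and down in pair 3.

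COUP-TFII binds DNA at repeats of the half-site AGGTCA, so the sequence before the start of Arfrp1 is shown with that of Arf6, the one member in which the half-site was found. RefSeq promoters (build GRCr8) were found for 9 of the 10 members, all but Arl3, and the 250 bases before the annotated start were searched for AGGTCA and its reverse complement TGACCT. The Arfrp1 stretch is chr3:188851432-188851681 on the minus strand and the Arf6 stretch chr6:93589527-93589776 on the plus strand, with the half-site in capitals.
Arfrp1: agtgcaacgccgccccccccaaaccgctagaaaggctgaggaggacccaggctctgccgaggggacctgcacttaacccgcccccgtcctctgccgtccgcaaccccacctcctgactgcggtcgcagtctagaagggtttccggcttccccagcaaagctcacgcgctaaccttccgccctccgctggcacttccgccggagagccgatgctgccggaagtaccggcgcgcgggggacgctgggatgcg
Arf6: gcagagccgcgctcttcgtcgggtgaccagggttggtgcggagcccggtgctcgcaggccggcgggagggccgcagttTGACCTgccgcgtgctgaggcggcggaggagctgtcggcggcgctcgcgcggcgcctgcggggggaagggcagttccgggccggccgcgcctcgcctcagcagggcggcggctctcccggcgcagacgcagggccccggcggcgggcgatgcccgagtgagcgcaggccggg
The half-site was in 1 of these 9 stretches and in 14.1% of the 33469 stretches in the table. In Arf6 it began 172 bases before the start, as TGACCT. Between 55.6% and 79.2% of the bases of the 9 stretches were G or C, with 68.4% in Arfrp1 and a median of 51.2% over the table. No binding was measured, so a match is only a match of letters, and its absence from this window bears on no other part of the gene.

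No member passed an adjusted p of 0.05 between COUP-TFII depleted and control cells. In limma, fitted unpaired over all probe sets with Benjamini-Hochberg adjustment, 0 of the 14 probe sets were called, and 0.0% of all. With the replicate number as a block limma called 0 of the 14 and 0.0161% of all. Unpaired limma did not call the siRNA target either. Nr2f2 1389554_at, at a log2 fold change of -2.65, had an adjusted p of 0.404 in unpaired limma and of 0.0185 in limma with the block. The lack of a call in the unpaired fit is therefore no sign that a signal stayed the same. At an unadjusted p up to 0.05 the unpaired fit counted 1 of the 14 (2.31% of all), which was Arfrp1 1370223_at. The block counted 3 (6.23% of all), adding Arl1 1387358_at and Arf1 1398817_at, and the methods' t-test counted 2 (3.14% of all), 1 lower (1.62% of all were lower) and 1 higher (1.52% of all). After adjustment the methods' t-test called 0 of the 14 and 0.00322% of all. The block on the 15521 brighter probe sets, those whose mean log2 signal reached the median, was chosen after the data were seen and called 1 of the 14 and 0.103% of those probe sets. That probe set was Arfrp1 1370223_at. The rule that chose Arfrp1 used this contrast, so nothing is read from these counts.

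Outside Arfrp1 1370223_at, no member had a log2 fold change larger in size than 0.26. By mean, 10 of the 14 probe sets were higher in COUP-TFII depleted cells, against 49.6% of all probe sets and 50.9% of those at least as bright as the dimmest member, and 4 were lower, against 50.4% of all. Of the 14, 11 were higher after quantile normalization, against 50.6% of all. The signal was higher in all 3 same-numbered pairs for 7 of the 14 (13.4% of all) and lower in all 3 for 1 (14.0% of all). These 7 were both probe sets of Arl1 and of Arf1, and those of Arf4, Arf5 and Sar1b. In the COPI list below Copb1, Copb2, Copg1, Arcn1, Kdelr1, Kdelr2 and Kdelr3 were also higher in all 3 pairs. Copa, Copg2, Cope, Copz1 and Copz2 were not, and of the AP-1 and GGA genes only Ap1s2 and Gga2 were. The counts over the 14 take 4 of the genes by 2 probe sets each. With 1 probe set per gene, the brightest, 6 of the 10 genes were higher by mean and 4 lower. The median log2 fold change of these 10 was 0.073, and 0.026 after quantile normalization, against -0.0031 and 0.0039 over all probe sets. Over the arrays left out in turn this median ran from -0.0088, without COUP-TFII siRNA replicate 2, to 0.16, without COUP-TFII siRNA replicate 3.

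**Figure D2:**
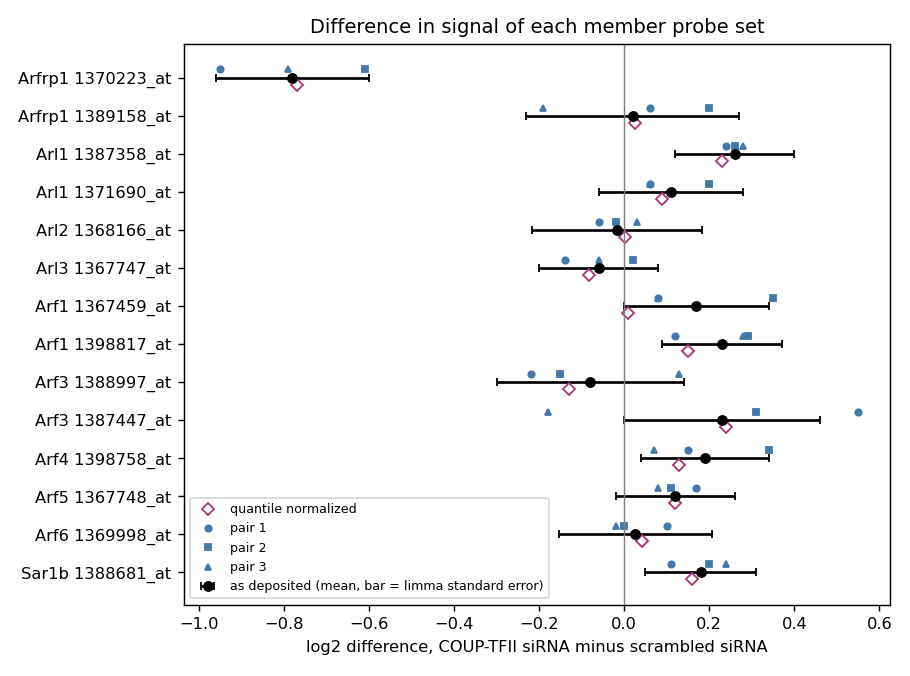
log2 difference in signal (COUP-TFII siRNA minus scrambled siRNA) of the 14 probe sets. Black points are means of 3 arrays against 3 with limma's standard error as bars, small blue symbols are the 3 same-numbered pairs and open diamonds are values after quantile normalization. Arfrp1 1370223_at lies at -0.78 and all others lie between -0.08 and 0.26.

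Arl1, the GTPase downstream of Arfrp1, had higher mean signals in COUP-TFII depleted cells by both probe sets. Arl1 1387358_at read 1572.8, 1621.3 and 1380.0 in COUP-TFII depleted cells and 1334.7, 1351.5 and 1140.0 in control cells. The 3 COUP-TFII depleted arrays lay above the 3 control arrays, as they did for 3.24% of all probe sets. The means were 1524.7 ± 128 and 1275.4 ± 118 (SD, n = 3 each), and the log2 fold change was 0.26 (SE 0.14), with an adjusted p of 1 in unpaired limma and of 0.777 in limma with the block. Arl1 1371690_at read 954.5, 1146.3 and 819 against 914, 996 and 785, with overlapping groups and a log2 fold change of 0.11 (SE 0.17). The second probe set was higher in 3 of 3 pairs as well, by less in each pair than the first.

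Arl2 and Arl3 carry out other tasks. Arl2 helps tubulin to fold and Arl3 releases lipid-modified proteins in cilia. Arl2 1368166_at read 116, 156 and 124 in COUP-TFII depleted cells and 121, 158 and 121 in control cells. The groups overlapped, and the array of replicate 2 was the highest in both groups. Its log2 fold change was -0.016 (SE 0.20). Arl3 1367747_at read 812, 987 and 984 against 894.5, 972 and 1028.5, with overlapping groups and a log2 fold change of -0.06 (SE 0.14). Both had an adjusted p of 1 from limma.

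Arf1, the best known Golgi Arf and the one that brings in the COPI coat, had higher mean signals by both probe sets. Arf1 1367459_at read 6820.6, 8097.7 and 6235.0 in COUP-TFII depleted cells and 6471.3, 6365.6 and 5889.9 in control cells. The groups overlapped, and the high mean came mostly from COUP-TFII siRNA replicate 2. The log2 fold change was 0.17 (SE 0.17), and 0.0094 after quantile normalization. Arf1 1398817_at read 3003.5, 3452.8 and 3187.2 against 2755.1, 2830.5 and 2630.9. These groups did not overlap (3.24% of all probe sets were higher without overlap). The log2 fold change was 0.23 (SE 0.14), or 0.15 after quantile normalization. Both had an adjusted p of 1 from limma, and with the replicate block the latter had 0.797.

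Arf3, a close relative of Arf1 at the trans-Golgi, was higher by 1 probe set and lower by the other. Arf3 1388997_at read 2099.2, 2774.1 and 2016.5 in COUP-TFII depleted cells and 2448.6, 3076.7 and 1839.6 in control cells, a log2 fold change of -0.08 (SE 0.22). Arf3 1387447_at read 232, 159 and 134 against 158, 128 and 152, a log2 fold change of 0.23 (SE 0.23). The groups overlapped for both, and neither difference exceeded the spread between replicates. The high mean of the second came from COUP-TFII siRNA replicate 1, without which its log2 fold change was 0.0064.

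Arf4 and Arf5, which also work between the endoplasmic reticulum and the Golgi, had 1 probe set each. Arf4 1398758_at read 3181.0, 3326.5 and 2580.0 in COUP-TFII depleted cells and 2865.5, 2629.0 and 2460.3 in control cells, a log2 fold change of 0.19 (SE 0.15). Arf5 1367748_at read 598, 710.5 and 602 against 531, 658 and 571, a log2 fold change of 0.12 (SE 0.14). Each was higher in 3 of 3 pairs with overlapping groups, and each had an adjusted p of 1 from limma. Probe sequences were not used here, so hybridisation between the close relatives Arf1 and Arf3, or Arf4 and Arf5, was not tested.

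Arf6, which steers endocytosis and recycling at the plasma membrane, differed least among the Arfs by mean log2 signal. Arf6 1369998_at read 245, 256 and 191 in COUP-TFII depleted cells and 229, 256 and 194 in control cells. Arrays with the same number lay close together, and the log2 fold change was 0.026 (SE 0.18). Sar1b 1388681_at read 1401.2, 1442.9 and 1293.6 against 1296.0, 1255.9 and 1096.7. Its groups overlapped by a single pair of arrays, COUP-TFII siRNA replicate 3 and scrambled siRNA replicate 1. Sar1b was higher in 3 of 3 pairs, with a log2 fold change of 0.18 (SE 0.13, adjusted p = 1 from limma).

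**Figure D3:**
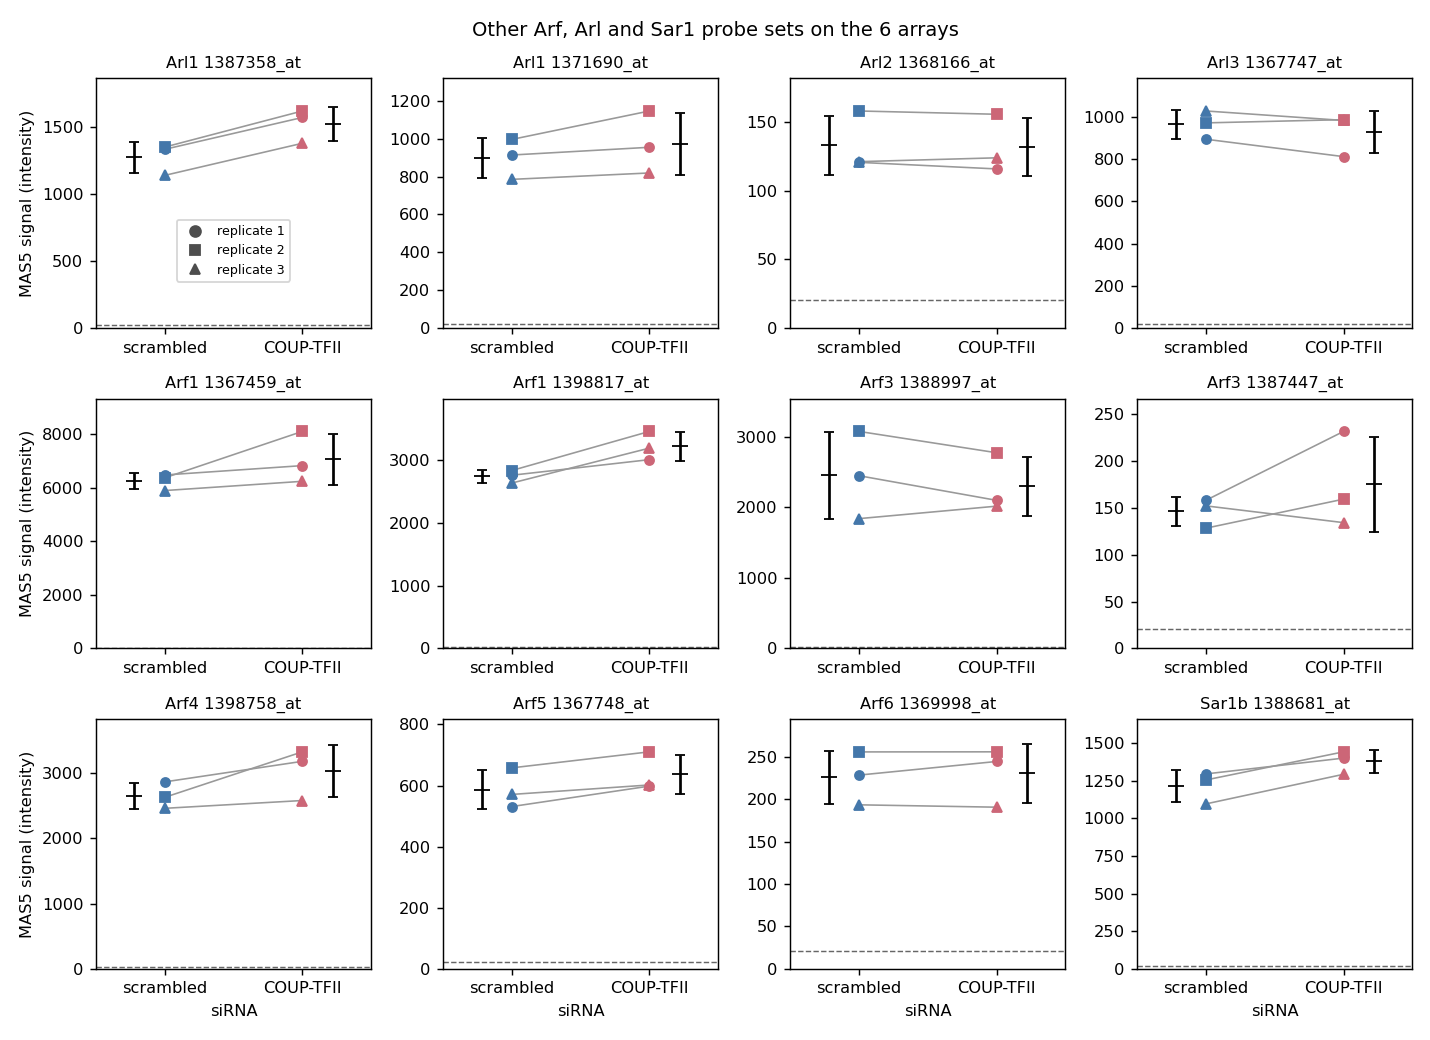
Signal per array (MAS5 intensity, linear axes from 0, scaled to each panel) of the 12 probe sets of the 9 members other than Arfrp1. Points are arrays, grey lines join same-numbered arrays, black bars are mean ± SD (n = 3) and a dashed line marks 20.7, the scale for background. In Arl1 1387358_at and Arf1 1398817_at the COUP-TFII siRNA arrays lie above the scrambled siRNA arrays, and in the other 10 panels the groups overlap. Over all probe sets 3.24% were higher without overlap, and 6.69% did not overlap in either direction.

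The replicate numbers, which the choice of members did not use, were compared by limma's F test in a fit with group and replicate number. At an unadjusted p up to 0.05, 7 of the 14 probe sets differed between the replicate numbers, against 25.8% of all. After Benjamini-Hochberg adjustment over all probe sets 1 of the 14 did, against 11.0% of all. This was Arf3 1388997_at (adjusted p = 0.033 from limma), whose signals of 2774.1 and 3076.7 in replicate 2 were the highest of their groups. The call was lost after quantile normalization, without the intensity trend and with any 1 of the 6 arrays left out. The count of member probe sets called was 12 after median centring (21.8% of all) and 3 among the brighter probe sets (31.0% of those). The array of replicate 2 was the highest in both groups for 8 of the 14 probe sets, against 15.0% of all. After quantile normalization it was so for 7 of the 14, against 21.4% of all. The array of replicate 1 was the highest in both groups for 1 (12.7% of all) and that of replicate 3 for 1 (21.2% of all), and after quantile normalization these were 4 (12.5% of all) and 2 (14.4% of all). These 8 were 1 probe set each of Arfrp1, Arl2, Arf1, Arf3, Arf5 and Arf6, and both of Arl1. A highest array of replicate 2 in both groups was not particular to the members. Among partners of Arl2 and Arl3, listed below, Arl2bp, Unc119, Unc119b, Tbcb, Tbcc and Tbcd showed it, and Pde6d, Tbca and Tbce did not. Among COPII genes Preb, Sec23b, Sec24c, Sec24d, Sec13 and Sec16a showed it, and Sec24b, Sec31a, Sec16b, Tfg, Mia2 and Mia3 did not. Of the exchange factors only Cyth2, Iqsec1 and Fbxo8 showed it. The Gcg signals given above also differ by replicate number, with the highest in replicate 1.

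Over the 6 arrays the log2 signal of Arfrp1 1370223_at was compared with that of 12189 brighter probe sets that carry 1 symbol. The most alike were Habp4 (Pearson r = 0.974), Pigc (0.969), Zswim8 (0.968), Alkbh5 (0.968) and Csnk2a2 1382160_at (0.966), and 0.648% of the probe sets had an r over 0.9. Habp4 1389665_at, for an RNA-binding protein, read 303, 441 and 295 in COUP-TFII depleted cells and 470, 576 and 476 in control cells. As with Arfrp1 1370223_at, replicate 2 was the highest in both groups and the groups did not overlap (3.45% of all probe sets were lower without overlap). Habp4 was picked for its likeness to a probe set that was itself singled out on this contrast. Nothing is therefore read from these shared traits. The 6 arrays share 2 groups and 3 replicate numbers, and a high r over so few points is a description only. Among the other member probe sets the r with Arfrp1 1370223_at ran from -0.56 for Arf1 1398817_at to 0.55 for Arf3 1388997_at, and it was -0.26 for the second Arfrp1 probe set.

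The regulators and partners of these GTPases were read from 9 lists of 135 genes, of which 112 had a probe set named for them alone. Unpaired limma called 0 of the 112 after adjustment, and so did limma with the replicate block. At an unadjusted p up to 0.05 the unpaired fit counted 1 higher gene (0.973% of all probe sets were higher) and 0 lower ones (1.34% of all). The block counted 7 higher (2.72% of all) and 5 lower (3.51% of all). The median log2 fold change of the 112 was 0.05, against -0.0031 over all probe sets. By mean 70 of the 112 were higher and 42 lower, against 49.6% and 50.4% of all probe sets. The groups did not overlap for 4 higher and 4 lower genes of the 112, against 3.24% and 3.45% of all probe sets. The gene of the unpaired count was Agap2, for a GTPase-activating protein of Arf1, which read 18.2, 32.5 and 42.4 in COUP-TFII depleted cells and 4.57, 18.6 and 6.9 in control cells. Its signals lie around 20.7, the scale for background, and the groups overlapped.

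In the Arfrp1-Arl1 pathway 13 of 16 listed genes were measured, with a median log2 fold change of 0.02. Sys1, the Golgi membrane protein that docks Arfrp1, read 285, 401 and 283 in COUP-TFII depleted cells and 272.5, 346.5 and 251 in control cells, a log2 fold change of 0.15 (SE 0.20). Golga4, a golgin that Arl1 recruits, was at a log2 fold change of -0.19 (SE 0.36). The groups stood apart for 2 of the 13. Arfip2, for arfaptin 2, another partner of Arl1, read 440, 483 and 433 in COUP-TFII depleted cells and 323, 420 and 366.5 in control cells, a log2 fold change of 0.30 (SE 0.15). Vps51, for a subunit of the GARP tether, read 176, 216.5 and 202 against 225, 298 and 227, a log2 fold change of -0.33 (SE 0.18). Over the whole array 6.69% of the probe sets had groups that did not overlap, and limma called neither gene, blocked or unpaired.

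In the list of exchange factors and related proteins 13 genes were measured, with a median log2 fold change of 0.049. Gbf1, which loads Arf1 at the early Golgi, was at a log2 fold change of 0.09 (SE 0.23), and Arfgef1, which acts at the trans-Golgi, -0.18 (SE 0.32). Arfgef2, its relative, read 99.6, 102.5 and 125 in COUP-TFII depleted cells and 138, 140 and 131 in control cells, a log2 fold change of -0.33 (SE 0.18) without overlap. Cyth1, for the exchange factor cytohesin 1, read 74.2, 74.0 and 83.6 against 56.9, 52.0 and 57.4, a log2 fold change of 0.48 (SE 0.23), also without overlap. The third gene of this list without overlap was Mon2 at -0.18 (SE 0.27). Of the 13, 1 was higher without overlap (3.24% of all probe sets) and 2 were lower (3.45% of all). Of 26 GTPase-activating proteins, with a median of 0.092, only Agfg1 stood apart, at 0.23 (SE 0.13), against 6.69% of all probe sets in either direction. Arfgap1, Arfgap2 and Arfgap3 had log2 fold changes of 0.22, 0.12 and -0.046.

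Of the coats that the members recruit, no gene was called by limma. The 12 genes of the COPI coat and the KDEL receptors had a median log2 fold change of 0.076, with 10 higher and 2 lower by mean. Over all probe sets 49.6% were higher by mean. Copa was at 0.00072 (SE 0.15), Copb1 at 0.11, Copb2 at 0.20 and Copg1, whose groups stood apart, at 0.17 (SE 0.12). Copz2, also apart, read 17.2, 20.8 and 15.6 in COUP-TFII depleted cells and 32.9, 27.7 and 35.7 in control cells, a log2 fold change of -0.85 (SE 0.41) close to the scale for background. Of these 12 genes 1 was thus higher without overlap and 1 lower, against 3.24% and 3.45% of all probe sets. The 11 AP-1 and GGA genes had a median of 0.051, with 8 higher and 3 lower by mean. Ap1b1 was at 0.051, Ap1g1 at 0.0039 and Ap1g2 at 0.09. The lowest and the highest of these 11, named after their values were seen, were Ap1m2 at -0.39 (SE 0.18), lower in 3 of 3 pairs, and Ap1s2 at 0.37 (SE 0.24), higher in 3 of 3 pairs. Both are adaptor subunits, their groups overlapped, and each counted at an unadjusted p up to 0.05 with the block (adjusted p = 0.72 from limma). The 12 measured COPII genes had a median of -0.029, with 5 higher and 7 lower by mean. Preb, the exchange factor of Sar1, was at -0.017 (SE 0.23) and Sec23b at 0.16 (SE 0.21).

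The remaining lists were small. With 6.69% of all probe sets without overlap, none apart in so few genes is no sign that the signals stayed the same. Of 9 partners of Arl2 and Arl3 none had groups that stood apart, and the median log2 fold change was 0.016, with Arl2bp at 0.016, Pde6d at 0.061 and Unc119 at -0.017. For 9 measured Arf6 effectors the median was 0.086, with the lipid kinases Pip5k1a, Pip5k1b and Pip5k1c at 0.27, 0.039 and 0.086 and no groups apart. Of 19 other genes of the Arf, Arl and Sar1 families 7 were measured, with a median of 0.106. Sar1a, the close relative of Sar1b, read 1237.7, 1407.6 and 1323.6 in COUP-TFII depleted cells and 1122.5, 1387.9 and 1096.2 in control cells, a log2 fold change of 0.14 (SE 0.14). Arf2 was at 0.27 (SE 0.24), and none of these 7 stood apart.

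**Figure D4:**
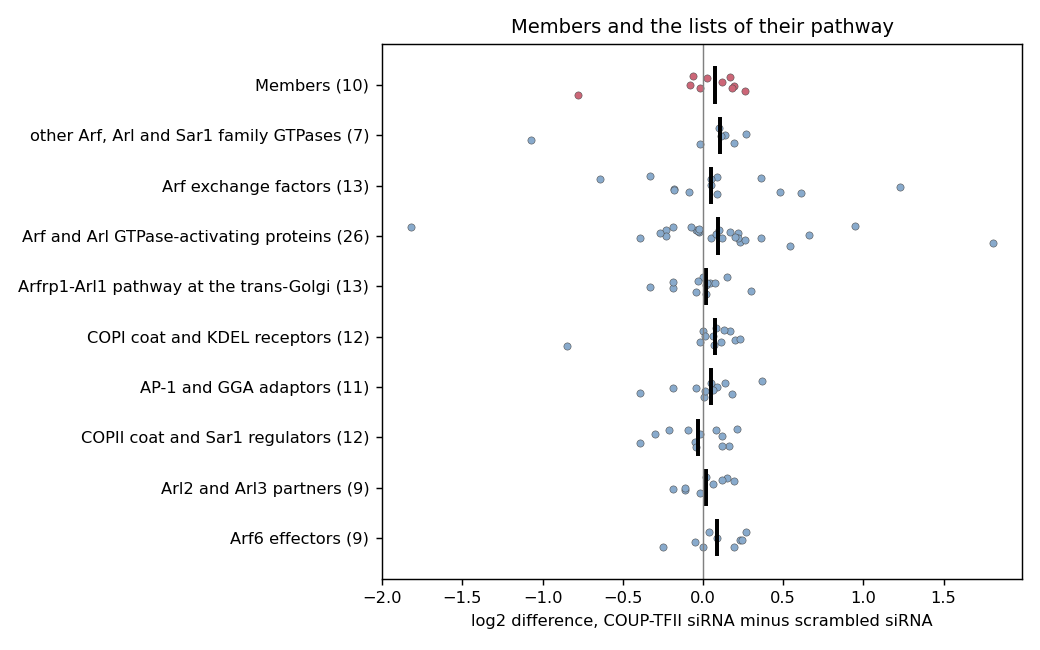
log2 difference in signal (COUP-TFII siRNA minus scrambled siRNA) of each gene by its brightest probe set (points, scattered vertically for legibility) for the members and 9 lists of their pathway, with the number of genes in brackets and the median as a black bar. The medians lie between -0.029 for COPII genes and 0.106 for the other family members, and the points farthest out, at -1.82 and 1.81 among GTPase-activating proteins, are Asap3 (means 2.18 and 10.2) and Agap2, near or below the scale for background.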

How the data were processed

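RNA was labelled and hybridised to 6 Affymetrix rat arrays, 3 per group. The authors summarised the scans with MAS5 (version not given in the sources used here), subtracted background and normalized with reference probes that are not named. The deposited values are 1 linear intensity per probe set and array, with no detection calls. Of 31099 probe sets 57 controls were left out, and the highest signal of 27 Bacillus controls, 20.7, served as a scale for background. All member signals lay above it, from 88.9 to 8097.7. The number of arrays limits the precision.

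A floor of 1 was put under the signals before taking log2. The comparison of the groups was an unpaired, two-sided limma fit (version 3.58.1, R 4.3.3; eBayes allowing for an intensity trend), adjusted over 31042 probe sets. The fits were tested on simulated data. By the array's annotation 20826 probe sets have a single symbol, 436 have several and 9780 have none. Deviations from group means correlated at 0.111, 0.231 and 0.163 for arrays with the same replicate number, and from -0.146 to -0.0104 for others. Deviations within a group cancel out, so the values for the others are tied to the former and add no separate evidence. The labels' numbers were taken to pair the arrays, and a fit with the replicate block was run as well. This pairing rests on small correlations in the same arrays that the block fit then compared. The labels call the replicates biological and do not say what a shared number marks.

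The members, lists and tests were chosen with earlier results of these data known. Named are all members, Nr2f2, up to 3 key genes marked in each list, up to 4 genes of a list above background whose groups do not overlap, and the 5 probe sets most like Arfrp1. Agap2, Asap3, Ap1m2 and Ap1s2 are named after their values were seen. Alternatives were the block, quantile normalization, median centring, log2(signal + 16), a floor at 20.7, a filter at the median signal, no intensity trend, the methods' t-test, and arrays or replicate numbers left out. Plots used Python 3.11.15 and matplotlib 3.10.9.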

Additional observations from a re-analysis of the deposited data

How the results depend on the processing

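No member passed an adjusted p of 0.05 in 19 of 20 alternatives, and the exception was the replicate block on the brighter probe sets (median signal and up), with 1 call, Arfrp1 1370223_at, which was chosen on this contrast, so nothing is read from the call. Its log2 fold change ran from -0.95 to -0.69 over the 20 alternatives, both with 1 array left out (without COUP-TFII siRNA replicate 2 and without scrambled siRNA replicate 2 or COUP-TFII siRNA replicate 3). Log2 fold changes took the other sign for Arl2 in 6 alternatives, Arfrp1 1389158_at and Arf6 in 4 each, Arf3 1388997_at in 2, and Arl1 1371690_at and Arl3 in 1 each. Over all probe sets limma called 0, and 5 with the replicate block, 16 with the block and the filter, 4 with the block and quantile normalization, 2 with the block and log2(signal + 16) and 1 by the methods' t-test. The replicate block by itself changed no call among the members or the pathway lists, where 0 genes were called in all alternatives. The settings that join the block with another choice were chosen after the data were seen.

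The members' median of 0.073 was 0.026 with quantile normalization, blocked or not, 0.097 with each gene's probe sets summarised by their median, 0.05, 0.059 and 0.095 without both arrays of replicate 1, 2 or 3, and from -0.0088 to 0.16 with 1 array left out. The replicate number test called 1 member probe set, against 11.0% of all, 12 after median centring (21.8% of all), 3 among the brighter probe sets (31.0% of those), 0 after quantile normalization (10.0% of all), 0 without the intensity trend (0.0% of all) and 0 to 0 with 1 array left out (3.65% to 7.18% of all). The cause of these shifts was not tested.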
